A study of Mus musculus with 6 samples.

Results

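Carbonic anhydrases are the zinc enzymes that interconvert carbon dioxide and bicarbonate, and 10 of their genes were examined among the 45777 genes measured in the livers of fasted *Pak4* knockout and control mice. They are *Car1*, *Car2*, *Car3*, *Car4*, *Car5a*, *Car5b*, *Car8*, *Car12*, *Car13* and *Car14*. The 10 genes were selected from the 16 carbonic anhydrase genes measured, with their read counts in this knockout against control contrast already known. The 6 left out, given below, had at most 33 reads in a mouse. Their levels and differences are therefore given as a description, without a test, and no threshold on a value was part of the choice. Among them, *Car3* stood far apart. It averaged 3163 TPM in control livers and 9.44 TPM in knockout livers.

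Carbonic anhydrases speed up the hydration of carbon dioxide to bicarbonate and a proton, and the family differs mainly in where each enzyme sits. CAR1, CAR2, CAR3 and CAR13 are cytosolic, CAR5A and CAR5B are mitochondrial, CAR4 is anchored to the outer face of the plasma membrane, and CAR12 and CAR14 span it with an outward-facing catalytic domain. CAR8 has lost a histidine that holds the zinc and is an inactive relative. In the liver, mitochondrial bicarbonate feeds carbamoyl phosphate synthesis for the urea cycle and pyruvate carboxylation for gluconeogenesis, and cytosolic bicarbonate feeds fatty acid synthesis. CAR3 is a slow carbonic anhydrase that is abundant in male rodent liver, adipose tissue and slow skeletal muscle.

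The study compared 3 WT with 3 LKO mice. All were male C57BL/6 mice, 8 weeks old and fasted for 24 h, and 1 library was made from the liver of each. WT mice carried the *Pak4* flox/flox allele without a recombinase, and LKO mice carried *Alb-Cre* with *Pak4* flox/flox. Both groups therefore carry the floxed allele and only LKO mice carry the transgene. The albumin promoter drives Cre in hepatocytes, and whether other liver cells keep *Pak4* was not measured here. Whole liver was sequenced. In such bulk samples, fewer cells of a type and less RNA per cell cannot be told apart.

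Total counts were 45934632 to 55205564 per WT library and 53936281 to 59576437 per LKO library. *Pak4* itself was at 3.59, 3.21 and 4.1 CPM in the WT mice and at 1.93, 1.49 and 3.22 CPM in the LKO mice, so the groups overlapped. Its log2 fold change was −0.71 ± 0.31 (SE; edgeR quasi-likelihood test, Benjamini-Hochberg adjusted p = 0.101). Without the third LKO mouse it was −1.08 (adjusted p = 0.0153 in the same edgeR test), and scaled to total counts −1.54 (adjusted p = 0.0056, edgeR). CPM here are counts scaled to a common library size after TMM, which assumes that most genes do not differ, and TPM are the deposited values per gene length. The scales differ in these livers. Over the 18636 genes tested, the median LKO to WT ratio of TPM was 0.332, whereas the median log2 fold change after TMM was −0.039. TPM are used below mainly to compare genes within a mouse, and CPM to compare mice.

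By TPM, the order in WT livers was *Car3*, *Car14*, *Car5a*, *Car8*, *Car2*, *Car1*, *Car5b* and *Car13*. The ranges of *Car8* and *Car2* overlapped, as did those of *Car5b* and *Car13*, and the other neighbours in this order did not overlap. *Car3* lay at 2413 to 3834 TPM. *Car14* followed at 32.8 to 43.8 TPM, *Car5a* at 19.4 to 24.8 TPM, *Car8* at 13.6 to 15.8 TPM and *Car2* at 10.6 to 17.5 TPM. *Car1* was at 2.78 to 5.96 TPM, and *Car5b* and *Car13* were each under 2 TPM in every WT mouse. In LKO livers, the first 5 genes by mean were *Car3*, *Car14*, *Car8*, *Car5a* and *Car2*, and each overlapped the next. *Car4* and *Car12* had no read in any mouse.

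**Figure D1:**
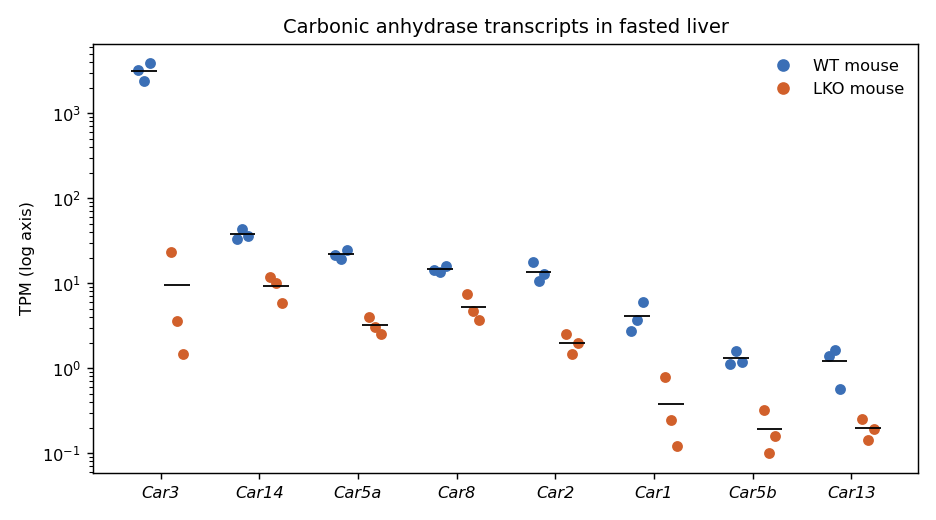
TPM (log axis) of the 8 carbonic anhydrase genes with reads, in the order of their WT means; each point is 1 mouse (3 WT and 3 LKO) and each line is a group mean. *Car3* stands at 2413 to 3834 TPM in the WT mice and at 1.47 to 23.3 TPM in the LKO mice, while most genes of the library also have lower TPM in the LKO mice.

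*Car3* (Entrez 12350, chromosome 3, 14863538 to 14872381, GRCm38) had 189899, 115542 and 210881 reads in the WT mice and 2152, 352 and 138 reads in the LKO mice. After scaling these were 2547, 1766 and 3188 CPM in WT and 48.9, 10.1 and 2.98 CPM in LKO. Every LKO mouse lay far below every WT mouse, with means of 2500 ± 712 and 20.7 ± 24.7 CPM (SD, n = 3 each). The log2 fold change was −6.92 ± 1.03 (SE). *Car3* ranked 37, 53 and 40 by TPM among all genes in the WT mice and 1436, 4701 and 8697 in the LKO mice.

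The LKO mice also differed widely from each other in *Car3*. The highest LKO mouse had 16.4 times the CPM of the lowest, against 1.81 times among WT mice. Over 12999 genes that averaged 1 CPM or more, the median of this ratio was 1.42 in LKO and 1.28 in the WT mice, and 48 genes (0.369%) had an LKO ratio as large as that of *Car3*. Without the first LKO mouse, the log2 fold change of *Car3* was −8.59.

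CAR3 is also a protein of fat and muscle, so markers of both were examined. Of 8 adipocyte markers, *Plin1* and *Lep* had no read, *Adipoq* had at most 4 reads in a mouse, and the list summed to 33.2 to 48.6 CPM in WT and 34.2 to 39.9 CPM in the LKO mice. *Fabp4*, at 5.09 to 9.27 CPM in WT, was higher in the LKO mice, and *Cidec* (19.98 to 30.4 CPM in WT), *Adrb3* (4.75 to 5.94 CPM) and *Cfd* (1.27 to 2.75 CPM) were lower. Of 10 skeletal muscle markers, 5 had no read in any mouse, among them *Acta1* and *Mb*, and *Ckm* had at most 2 reads. The muscle list summed to 0.107 to 0.367 CPM in WT and 0.0909 to 0.800 CPM in the LKO mice, and the 1 marker tested was higher in the LKO mice. The part of fat or muscle in the level of *Car3* was not tested. Scaled to total counts, the adipocyte ranges were 42.8 to 65.6 and 23.3 to 31.0 CPM and did not overlap.

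*Car2* (Entrez 12349, chromosome 3, 14886269 to 14900770) encodes the fast cytosolic enzyme found in many cell types. It was at 16.1, 9.71 and 13.5 CPM in the WT mice and 6.54, 5.19 and 4.61 CPM in the LKO mice. All LKO values lay below all WT values, and the log2 fold change was −1.27 ± 0.23 (SE). *Car1* (Entrez 12346, chromosome 3, 14766214 to 14808365), the major carbonic anhydrase of red blood cells, was low. It had 128, 139 and 255 reads in WT and 57, 22 and 10 reads in the LKO mice, or 1.72, 2.12 and 3.86 against 1.30, 0.631 and 0.216 CPM. The groups did not overlap, the LKO mice spanned 5.99-fold, and the log2 fold change was −1.84 ± 0.58 (SE). *Car13* (Entrez 71934, chromosome 3, 14641727 to 14663002), a widely expressed cytosolic form, had 124, 117 and 48 reads in WT and 36, 21 and 27 reads in the LKO mice. The third WT mouse, at 0.726 CPM, lay within the LKO range of 0.584 to 0.818 CPM, and the log2 fold change was −1.06 ± 0.41 (SE).

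Red blood cells carry both *Car1* and *Car2*. Of 10 erythroid markers listed, 9 were in the table and 7 were tested, and *Rhag* had no read. Of the 7, 2 were higher and 1 was lower in the LKO mice, against 19.6% and 20.5% of all genes tested. The list summed to 192 to 324 CPM in WT and 880 to 1636 CPM in the LKO mice, and most of it was beta globin. The part of red cells in the levels of *Car1* and *Car2* was not tested.

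The mitochondrial pair supplies bicarbonate in the matrix. *Car5a*, the form found mainly in liver, lies on chromosome 8 (Entrez 12352, 121916135 to 121944912), and *Car5b*, the more widely expressed form, on chromosome X (Entrez 56078, 163976822 to 164028010). Promoter windows from RefSeq (GRCm38.p6) were present for 5 of the 10 genes. The windows of the 250 bases before the start of *Car5a* and *Car5b* are printed because the same enzyme reaction in the same compartment is encoded behind sequences of unlike composition. They are chr8:121944913-121945162 and chrX:164028011-164028260, both on the minus strand, 5′ to 3′, and capitals mark matches to the motifs searched.
Car5a: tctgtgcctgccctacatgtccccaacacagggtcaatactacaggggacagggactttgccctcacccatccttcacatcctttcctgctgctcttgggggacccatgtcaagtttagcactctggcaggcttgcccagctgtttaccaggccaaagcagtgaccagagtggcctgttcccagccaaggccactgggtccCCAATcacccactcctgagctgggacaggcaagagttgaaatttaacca
Car5b: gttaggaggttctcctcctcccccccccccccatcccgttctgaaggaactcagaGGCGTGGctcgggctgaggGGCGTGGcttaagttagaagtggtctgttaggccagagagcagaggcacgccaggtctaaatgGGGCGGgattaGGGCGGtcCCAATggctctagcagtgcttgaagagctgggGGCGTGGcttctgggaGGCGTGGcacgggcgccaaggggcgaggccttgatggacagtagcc

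The *Car5a* window held 0 CpG and the *Car5b* window 12, against a median of 6 over 32851 promoter windows. The motifs searched on both strands were TATAAA (the TATA box), CCAAT (the NF-Y box), GGGCGG (the GC box), AGGTCA (the nuclear receptor core) and GGCGTGG, the last added after the *Car5b* sequence was seen. In that order they occurred in 12.4%, 33.8%, 32.7%, 14% and 7.54% of all windows. *Car5a* had 1 CCAAT. *Car5b* had 1 CCAAT, 2 GGGCGG and 4 GGCGTGG. These are letter matches and no site of binding was measured.

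*Car5a* was at 13.5, 11.5 and 16.8 CPM in the WT mice and 6.88, 7.0 and 4.13 CPM in the LKO mice. The groups did not overlap, and the log2 fold change was −1.22 ± 0.25 (SE). *Car5b*, with 149, 170 and 148 reads in WT and 67, 22 and 34 reads in the LKO mice, was at 2.00, 2.60 and 2.24 against 1.52, 0.631 and 0.735 CPM. Its groups did not overlap either, and the log2 fold change was −1.23 ± 0.37 (SE). The ratio of *Car5a* to *Car5b* TPM was 18.7, 12.3 and 20.8 in the WT mice and 12.7, 30.7 and 15.8 in the LKO mice, so *Car5a* was the larger by at least 12.3 times in each liver and the groups overlapped.

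*Car14* (Entrez 23831, chromosome 3, 95897768 to 95905117) encodes the membrane form found on hepatocytes and was the second most abundant member in WT livers. It was at 28.4, 35.0 and 32.8 CPM in the WT mice and 25.3, 28.5 and 12.5 CPM in the LKO mice. The groups overlapped by a narrow margin, since the highest LKO mouse exceeded the lowest WT mouse, and the log2 fold change was −0.54 ± 0.28 (SE). It was −0.26 without the third LKO mouse, the lowest. *Car4* (Entrez 12351, chromosome 11, 84957754 to 84966054) and *Car12* (Entrez 76459, chromosome 9, 66712296 to 66766845) are listed at 0 reads in all 6 mice, and whether reads of them were lost before the table was made is not known. For libraries in which they were counted, a count of 0 allows up to 3 counts, or 0.0402 to 0.0459 CPM in WT and 0.0649 to 0.0860 CPM in the LKO mice, for counting error only.

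*Car8* (Entrez 12319, chromosome 4, 8141493 to 8239041), the inactive relative, binds the inositol trisphosphate receptor. It was at 42.4, 37.0 and 48.9 CPM in the WT mice and 58.5, 48.9 and 28.1 CPM in the LKO mice. The LKO values enclosed the WT values, and the log2 fold change was 0.080 ± 0.26 (SE). Scaled to total counts it was −0.78, and without the first LKO mouse −0.15, so its sign depended on the scaling and on single mice. With total counts the median over all genes tested was −0.90.

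Of the 8 genes that could be tested, 5 (*Car1*, *Car2*, *Car3*, *Car5a* and *Car5b*) had an adjusted p under 0.05 and all 5 were lower in the LKO mice. Over all 18636 genes tested, 40.1% were called, 20.5% lower and 19.6% higher. The genes nearest the threshold were *Car1* and *Car5b* on the inside, at −1.84 and −1.23, and *Car13* and *Car14* on the outside, at −1.06 and −0.54. The median log2 fold change was −1.23 over the 8 genes and −0.039 over all genes tested. By CPM, every LKO mouse lay below every WT mouse for the same 5 genes, as it did for 27.9% of all genes tested. By TPM this was so for all 8 genes and for 74.9% of all genes tested. Because the genes were chosen with this contrast in view, nothing is read from these counts.

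**Figure D2:**
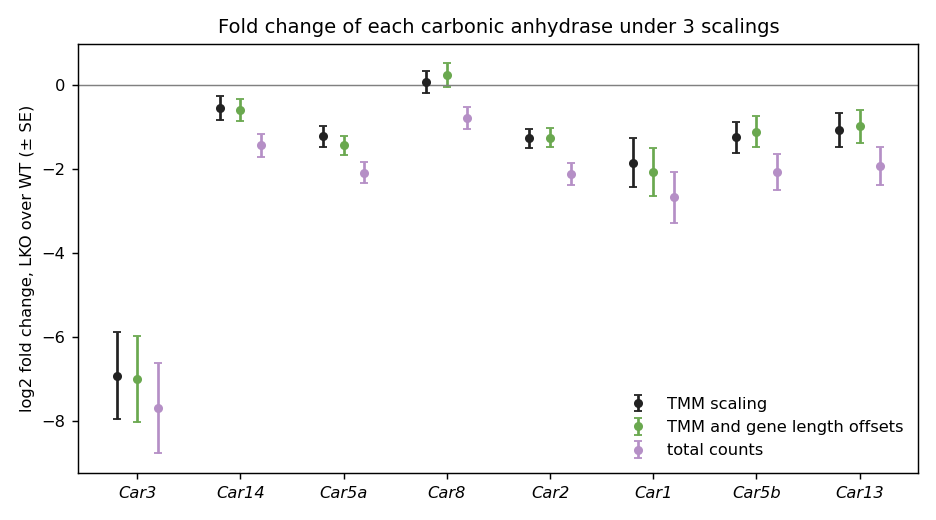
Log2 fold change (LKO over WT) with its SE for the 8 carbonic anhydrase genes with reads, under TMM scaling, TMM with gene length offsets, and total counts (3 WT and 3 LKO mice). *Car3* lies at −6.92, −7.00 and −7.69 in that order. *Car8* changes sign, from 0.080 with TMM to −0.78 with total counts.

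The make-up of the family transcripts differed between the groups. Summed TPM of the 10 genes were 3333, 2507 and 3931 in the WT mice and 50.5, 23.4 and 16.1 in the LKO mice. *Car3* made up 97.3%, 96.2% and 97.5% of that sum in the WT mice and 46.1%, 15.3% and 9.14% in the LKO mice. *Car14* made up 0.984%, 1.75% and 0.910% in WT and 23.4%, 43.2% and 36.6% in the LKO mice. In 2 of the 3 LKO mice *Car14* was the most abundant member. Without *Car3*, the sums were 91.3, 94.2 and 97.0 TPM in WT and 27.2, 19.8 and 14.6 TPM in the LKO mice, a ratio of the means of 4.58. The TPM of most other genes were lower in LKO libraries as well, as given above.

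**Figure D3:**
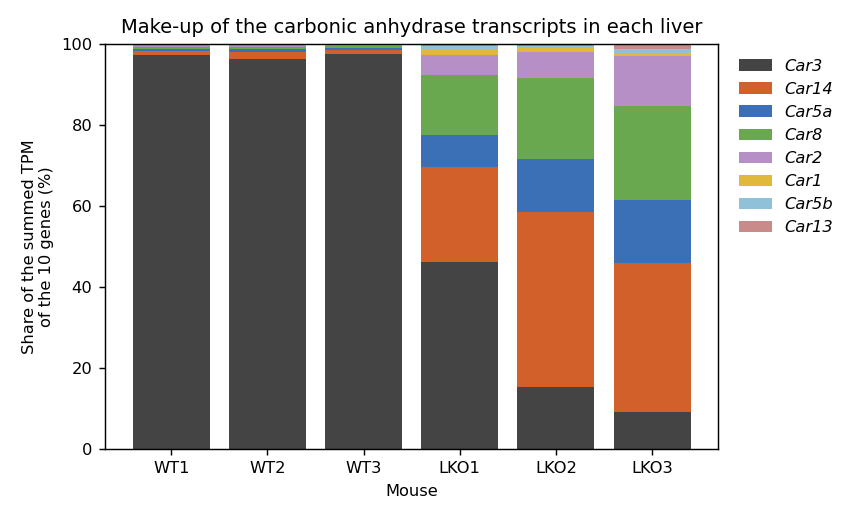
Share (%) of the summed TPM of the 10 carbonic anhydrase genes taken by each gene in each of the 6 mice; the segments of a bar add up to 100%. *Car3* fills 96.2% to 97.5% of each WT bar and 9.14% to 46.1% of each LKO bar, where *Car14* takes 23.4% to 43.2%.

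Ratios within a mouse do not depend on the scaling between mice. *Car3* to *Car2* was 185, 228 and 296 in the WT mice and 9.16, 2.44 and 0.740 in the LKO mice. *Car3* to *Car14* was 98.9, 55.1 and 107 in WT and 1.97, 0.355 and 0.249 in the LKO mice. *Car2* to *Car14* was 0.534, 0.241 and 0.362 against 0.215, 0.145 and 0.337, with overlap. *Car14* to *Car8* was 2.26, 3.23 and 2.26 against 1.58, 2.16 and 1.57, without overlap but with LKO values close to the WT values. Of these 4 ratios, both that hold *Car3* separated the groups widely.

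*Car13*, *Car1*, *Car3* and *Car2* lie side by side on chromosome 3 within 259 kb (14641727 to 14900770). Their log2 fold changes in that order were −1.06, −1.84, −6.92 and −1.27, and the groups of *Car13* overlapped while those of the other 3 did not. The gene that lies before *Car13*, *Rbis*, a ribosome biogenesis factor (14606289 to 14611256), went the other way. It was at 12.2, 10.4 and 14.2 CPM in WT and 47.9, 65.9 and 48.1 CPM in the LKO mice, and rose by a log2 fold change of 2.13 ± 0.19 (SE; edgeR quasi-likelihood test, adjusted p = 0.000276). On the other side, *Gm9733* had 7, 7 and 10 reads in WT and 2, 0 and 0 reads in the LKO mice, and was not tested.

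The lncRNA *Gm41999* (14846313 to 14864065) overlaps the first 528 bases of *Car3*. It was at 12.5, 12.0 and 18.7 CPM in WT and 17.5, 3.79 and 0.843 CPM in the LKO mice, and its log2 fold change of −0.96 ± 0.81 (SE) was not called (edgeR quasi-likelihood test, adjusted p = 0.380). The LKO mouse with the most *Car3* also had the most *Gm41999*, and the one with the least had the least. Without the first LKO mouse its value was −2.66 (adjusted p = 0.0102 in the same edgeR test). Whether the counting used strand is not given in the sources used here, so reads of *Gm41999* and *Car3* in the overlap cannot be told apart. The pseudogene *Gm16399*, inside the *Car1* gene, had at most 5 reads.

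**Figure D4:**
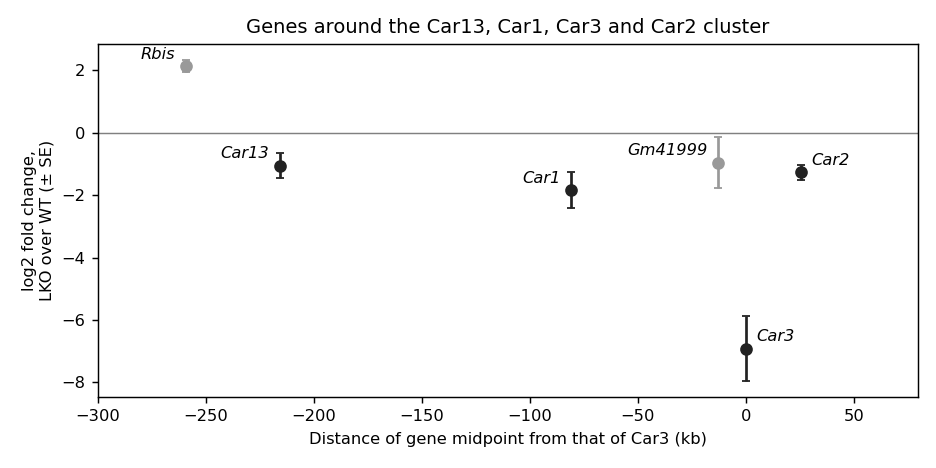
Log2 fold change (LKO over WT) with its SE of the tested genes around *Car3*, against the distance of their midpoints from that of *Car3* in kb; black points are carbonic anhydrase genes and grey points are other genes. *Rbis*, at −259 kb, is at 2.13, *Car3* is at −6.92, and *Car13*, *Car1* and *Car2* lie between −1.84 and −1.06.

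The genes whose profile over the 6 mice was nearest to that of *Car3* were sought among 12998 other genes that averaged 1 CPM or more, by the Euclidean distance between centred log2(CPM + 1) profiles. They were *Serpina4-ps1* (distance 3.00), *Obp2a* (3.58), *Thrsp* (4.31), *Aox3* (4.39) and *Ighg2c* (4.46). All 5 were lower in the LKO mice, at log2 fold changes of −5.95, −9.52, −4.53, −4.27 and −5.76, which is a property of the way they were chosen. By the same measure the nearest gene lay at 0.18 for *Car2*, 0.196 for *Car5a*, 0.203 for *Car8* and 0.27 for *Car14*. Even the nearest profile was thus far from that of *Car3*, and likeness between mice of a group was not tested. *Obp2a* encodes an odorant-binding lipocalin, *Thrsp* a regulator of lipogenesis, *Aox3* an aldehyde oxidase and *Ighg2c* an immunoglobulin heavy chain. *Serpina4-ps1* is a pseudogene of a large family, and its reads are uncertain.

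The other 6 carbonic anhydrase genes in the table were scarce, with at most 33 reads in a mouse. *Car10* had no read, *Car6* had 4 reads in 1 WT mouse, and *Car9*, the hypoxia-responsive membrane form, had 0, 18 and 7 reads in WT and 3, 0 and 0 reads in the LKO mice. Of the 3 genes that could be tested, 0 were called by edgeR's quasi-likelihood test (background 40.1%). Among these 3, 0 had an unadjusted p under 0.05, and 0 were called by exactTest or by DESeq2. Their log2 fold changes were −0.36 ± 0.51 for *Car7*, 0.62 ± 0.86 for *Car11* and −0.53 ± 0.45 for *Car15* (SE). The sign of *Car11* turned with the scaling, to −0.21 with total counts.

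The enzymes that use bicarbonate in the liver were listed next. Of 9 listed, *Pc* was not found under that symbol and was not analysed here. The other 8 were tested, of which 1 rose, 3 fell and 4 were not called (background 19.6% and 20.5%), with a median log2 fold change of −0.38. *Cps1*, carbamoyl phosphate synthetase of the urea cycle and 1 of the mitochondrial consumers of bicarbonate, was at 4021, 3425 and 4001 CPM in WT and 10730, 11620 and 15140 CPM in the LKO mice. It rose by a log2 fold change of 1.71 ± 0.28 (SE; edgeR quasi-likelihood test, adjusted p = 0.00208). On log2(TPM + 1) in limma it was 0.15 (adjusted p = 0.567), where the call was lost, and scaled to total counts in edgeR it was 0.85 (adjusted p = 0.0131), where it was kept. The TPM ratio of *Car5a* to *Cps1* within a mouse was 0.0150, 0.0150 and 0.0186 in WT and 0.00286, 0.00268 and 0.00121 in the LKO mice, without overlap.

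*Acaca* and *Acacb*, the acetyl-CoA carboxylases of fatty acid synthesis and of the control of fatty acid oxidation, both fell. *Acaca* went from 277 ± 61.0 to 64.4 ± 18.0 CPM (SD, n = 3 each), a log2 fold change of −2.11 ± 0.27 (SE; edgeR quasi-likelihood test, adjusted p = 0.00069). *Acacb* went from 70.7 ± 23.9 to 22.1 ± 5.70 CPM, or −1.68 ± 0.28 (adjusted p = 0.00217 in the same edgeR test). *Cad*, which starts pyrimidine synthesis from bicarbonate and glutamine, fell by 1.80 ± 0.36 on the log2 scale (adjusted p = 0.00537, edgeR). The carboxylases of propionate and leucine breakdown were not called, with log2 fold changes of −0.42 for *Pcca*, −0.13 for *Pccb*, −0.34 for *Mccc1* and 0.45 for *Mccc2*. *Mccc2* lay just outside the threshold (adjusted p = 0.0503, edgeR), and was called higher with DESeq2 size factors, DESeq2, edgeR filterByExpr and gene length offsets (adjusted p = 0.0494, 0.0422, 0.0428 and 0.0286). Scaled to total counts its value was −0.41.

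Bicarbonate itself is carried by SLC4 and SLC26 proteins. Of 16 listed genes 10 were tested, of which 2 rose, 3 fell and 5 were not called (background 19.6% and 20.5%). The median log2 fold change was −0.029. *Slc4a4*, the sodium bicarbonate cotransporter, was at 68.3, 78.6 and 68.4 CPM in WT and 163, 138 and 138 CPM in the LKO mice, a log2 fold change of 1.03 ± 0.15 (SE; edgeR quasi-likelihood test, adjusted p = 0.0012). With total counts it was 0.17 (adjusted p = 0.483, edgeR) and on log2(TPM + 1) in limma −0.48 (adjusted p = 0.0616), so its direction is not settled. *Slc26a1*, a sulfate and bicarbonate exchanger, fell by 0.86 ± 0.18 on the log2 scale (adjusted p = 0.00654, edgeR). *Slc26a6*, an anion exchanger, fell by 1.79 ± 0.34 (adjusted p = 0.00381, edgeR), and *Slc4a2*, named after its values were seen, was the third to fall, at −1.45. *Slc4a9* had 5, 10 and 5 reads in WT and 29, 16 and 145 reads in the LKO mice. Its log2 fold change of 3.84 ± 0.82 (adjusted p = 0.00705, edgeR) was 2.49 without the third LKO mouse, and on log2(TPM + 1) in limma the gene was not called (0.29, adjusted p = 0.233). *Slc4a7*, at 0.29, was not called.

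CAR2 and the membrane forms are known to work beside transporters of protons and of lactate and ketone bodies. Of 14 such genes 11 were tested, of which 0 rose, 3 fell and 8 were not called (background 19.6% and 20.5%). The median log2 fold change was −0.49. *Bsg*, the chaperone of the monocarboxylate transporters, went from 167 ± 24.5 to 105 ± 21.0 CPM (SD, n = 3 each). Its log2 fold change was −0.67 ± 0.19 (SE; edgeR quasi-likelihood test, adjusted p = 0.0248). The call was lost without the first WT mouse, the third WT mouse or the first LKO mouse (adjusted p = 0.0902, 0.0572 and 0.0527, edgeR), which leaves the list at 1 gene called. *Slc9a8*, a sodium proton exchanger, fell by 0.87 ± 0.16 on the log2 scale (adjusted p = 0.00377, edgeR). The monocarboxylate transporters *Slc16a1* and *Slc16a7* were at 0.039 and 0.35 and were not called. Both turned negative with total counts.

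**Figure D5:**
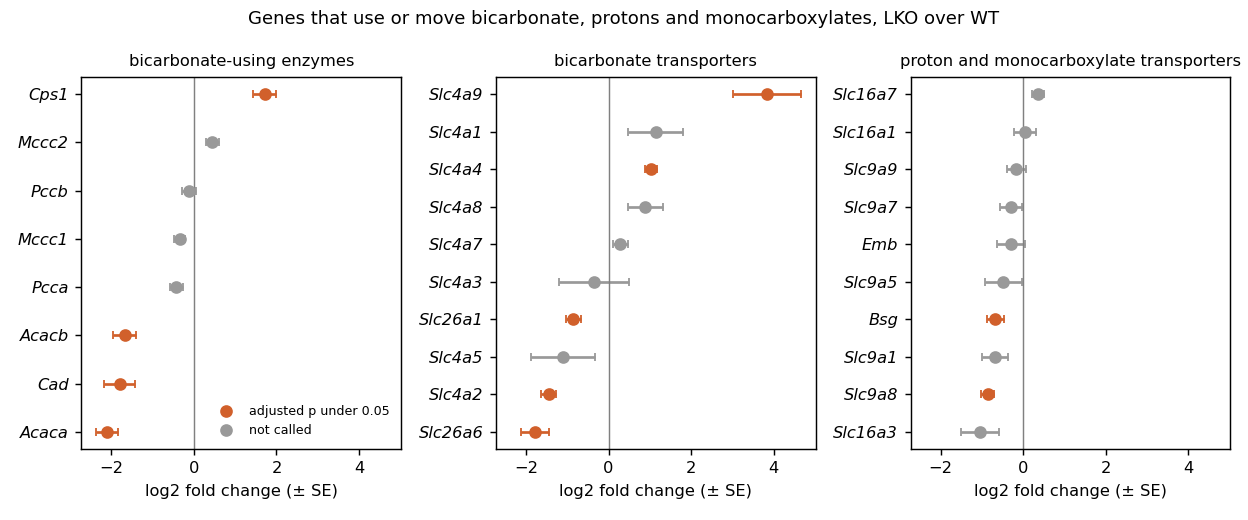
Log2 fold change (LKO over WT, with SE) of the tested genes of 3 lists, bicarbonate-using enzymes (8), bicarbonate transporters (10) and proton and monocarboxylate transporters (10 of the 11); orange points had an adjusted p under 0.05 and grey points did not. *Cps1*, *Slc4a4* and *Slc4a9* lie to the right, and *Acaca*, *Cad*, *Acacb* and *Slc26a6* to the left.

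Markers of the liver's own cells were checked in the same libraries. Over all genes tested, 19.6% were called higher and 20.5% lower. The 10 hepatocyte markers summed to 48440 to 51290 CPM in WT and 122300 to 140200 CPM in the LKO mice, and 4 were higher and 1 lower of 10 tested. Scaled to total counts the ranges were 64130 to 69270 and 81640 to 114400 CPM. Of 8 sinusoidal endothelial markers 6 were higher, summing to 260 to 307 CPM in WT and 453 to 480 CPM in the LKO mice. Of 8 Kupffer cell markers 4 were higher and 0 lower (307 to 461 and 488 to 934 CPM), and of 8 stellate cell markers 3 were higher and 1 lower (285 to 335 and 580 to 835 CPM). With total counts the WT and LKO ranges overlapped for these 3 lists, at 333 to 437 and 289 to 380 CPM, 393 to 631 and 398 to 596 CPM, and 366 to 478 and 473 to 533 CPM. Of 4 cholangiocyte markers tested, from a list of 8, 0 were higher and 1 lower (32.9 to 50.4 and 13.7 to 30.3 CPM). Most of that sum was *Spp1*, the marker called lower, at 30.5 to 48.1 CPM in WT and 11.7 to 26.5 CPM in the LKO mice. *Krt19*, *Sox9* and *Epcam* were not called, at log2 fold changes of 1.00, 0.11 and 0.048. *Krt7*, with 6, 0 and 0 reads in WT and 7, 12 and 14 in the LKO mice, was not tested. Biliary cells also make carbonic anhydrases, among them CAR2, and the part of this list in the level of *Car2* was not tested.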

How the data were processed

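Liver RNA of 3 WT and 3 LKO mice was sequenced with 1 library per mouse, and the genotype label of each sample set its group. The labels name a stranded mRNA kit and the study's methods a total RNA kit with removal of ribosomal RNA, and which was used is not settled here. The submitters' processing notes name bcl2fastq 2.20.0, FastQC 0.11.7, HISAT2 2.1.0, Bowtie2 2.3.4.1, StringTie 2.1.3b and mm10. Read counts, FPKM and TPM of 45777 genes were deposited by the authors. The deposited counts are unnormalized whole numbers of reads. The authors scaled FPKM by gene length and depth, and here FPKM served only to give relative gene lengths. The deposited TPM were scaled by the authors to a common sum in each library. Of the Entrez numbers, 45679 were found in RefSeq annotation GRCm38.p6, the source of coordinates.

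A gene was tested when at most 1 of the 6 mice had no read of it. These 18636 genes were compared between LKO and WT in R 4.3.3 by edgeR 4.0.16 (quasi-likelihood test), after TMM scaling, two-sided, with Benjamini-Hochberg adjustment over all of them and a threshold of 0.05. The common biological coefficient of variation was 0.254. Values are mean ± SD over 3 mice or a log2 fold change ± SE. The fits were tested on simulated data with known changes, in equal numbers up and down. No shift of scale between the groups was simulated, so the choice between TMM and total counts was not tested. Alternatives used edgeR's exactTest, DESeq2 1.42.0, its size factors, total counts, limma 3.58.1 on log2(TPM + 1), other filters, gene length offsets, the replicate number as a block, and each mouse left out.

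The genes, the lists and the tests were chosen with earlier results of these data known. Named were all 10 genes, *Pak4*, the other family genes, all bicarbonate-using enzymes, the 5 profiles nearest to *Car3* and the genes around *Car3*. Also named were the 3 most abundant genes of each transporter list with its largest called rise and fall. The rule further held the 2 most abundant genes of each marker list (some given only within its sum). It also held the 2 called sex-biased genes with the largest change. Marker lists are given by their sums, and genes named from them were chosen after their values were seen. A few genes that the rule or a list holds are not reported here.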

Additional observations from a re-analysis of the deposited data

How the results depend on the processing

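The 40 named genes were followed through 10 other settings of the fit and 6 fits that each left out 1 mouse, and of 639 gene and setting pairs 20 changed sign, 7 of them where a mouse was left out. With total counts in place of TMM, genes called were 1167 higher and 9575 lower, against 3661 higher and 3815 lower with TMM, and the median of all genes moved from −0.039 to −0.90. Calls then came to 8 of the 8 tested carbonic anhydrases, 1 other family gene, 7 bicarbonate-using enzymes and 10 proton and monocarboxylate transporters, and the sign turned for *Car8* (−0.78), *Car11* (−0.21), *Mccc2* (−0.41), *Slc4a7* (−0.59), *Slc16a7* (−0.51) and *Slc16a1* (−0.81). With limma on log2(TPM + 1), 12918 genes were called (399 higher and 12519 lower), with 8 of the carbonic anhydrases, 2 other family genes, 7 enzymes and 10 proton and monocarboxylate transporters, and the sign turned for *Car8* (−1.35), *Car11* (−0.020), *Mccc2* (−1.05), *Slc4a4* (−0.48), *Slc4a7* (−0.90), *Slc16a7* (−1.11) and *Slc16a1* (−1.44). The cause was not tested. Leaving out 1 mouse gave 5617 to 7230 genes called, 3 to 5 carbonic anhydrases (3 without WT replicate 2, LKO replicate 2 or LKO replicate 3), 4 to 5 enzymes and 1 to 3 proton and monocarboxylate transporters, and values of −0.15 to 0.33 for *Car8*, −0.27 to 0.27 for *Slc16a1*, −0.37 to 1.23 for *Car11* and −0.96 to 0.031 for *Car7*. DESeq2 called 7843 genes and exactTest 8002, the latter with *Car13* as a sixth carbonic anhydrase. Same-numbered mice are different animals, and their deviations correlated at 0.056, −0.017 and −0.080. With 3 mice per group, these values cannot decide whether the numbers mark a shared batch. With the replicate number as a block 6431 genes and 4 carbonic anhydrases were called (without *Car1*), and not every mouse correlated best with its own number. With gene length offsets and the block, 6252 genes and 4 carbonic anhydrases were called (without *Car5b*). *Car7*, *Car11* and *Car15* had at most 33 reads in a mouse, and SE of 0.45 to 0.86.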

Other observations

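*Car3* is known as a male-biased gene of rodent liver, so 10 male-biased and 10 female-biased liver genes were listed, with their values in these male mice. Of the 10 male-biased genes, all tested, 2 rose and 4 fell in LKO mice (background 19.6% and 20.5%). The median log2 fold change was −0.64. The largest falls were those of *Hsd3b5*, a steroid dehydrogenase, from 79.8 ± 23.1 to 2.43 ± 0.517 CPM (SD, n = 3 each; log2 fold change −5.03 ± 0.29, edgeR quasi-likelihood test, adjusted p = 0.000107), and of *Elovl3*, a fatty acid elongase, from 142 ± 140 to 14.1 ± 6.55 CPM (−3.34 ± 0.70, adjusted p = 0.00634, edgeR). *Elovl3* was at −2.13 without the first WT mouse. Of the 6 female-biased genes that could be tested, 3 rose and 1 fell (same background). The filter on zero counts, however, left out genes that went to or from 0. *Cyp2b9* had 2363, 627 and 280 reads in WT and 0, 0 and 3 reads in LKO mice, *Cyp2b13* had 142, 57 and 29 against 14, 0 and 0, and *Hao2* had 73, 38 and 12 against 0, 0 and 0. *Sult3a1* had 0 reads in the WT mice and 38, 47 and 25 in the LKO mice. Those 4 were not tested, were named after their values were seen, and give no one direction for the list. The tested gene that fell was *A1bg*, a plasma glycoprotein (−3.94 ± 0.92, adjusted p = 0.0103, edgeR). The female-biased list summed to 87.1 to 135 CPM in WT and 148 to 221 CPM in LKO mice, but with total counts the ranges overlapped, at 112 to 183 and 121 to 141 CPM.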
